A study of Homo sapiens with 6 samples.

Results

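The 9 genes described here encode enzymes that make or protect the building blocks of DNA, and they were chosen by their symbols: RRM1, RRM2, TYMS, TK1, DUT, DTYMK, DCK, CAD and UMPS. The choice was made with earlier results of these data known. All 9 were present among the 54259 gene symbols of the deposited count table and all 9 had enough counts to be tested. The RNA came from MDA-MB-231, an established human breast cancer cell line of mesenchymal character, in 3 libraries of shBry cells, whose short hairpin RNA targets the transcription factor brachyury, and 3 libraries of shNC cells with a control hairpin. The study asked which genes and pathways lie downstream of brachyury in tumor cells. The hairpin sequence, its promoter and the number of clones behind each line are not given in the sources used here, and nothing states that the 3 libraries of a group came from separate cultures, so p-values measure the spread between these libraries, which may be technical.

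Deoxynucleotides are made along connected routes. Ribonucleotide reductase, a complex of a large and a small subunit, converts ribonucleotides into deoxyribonucleotides, and its output limits DNA synthesis. Thymidine nucleotides need a further step, in which thymidylate synthase methylates dUMP, while salvage kinases recover nucleosides that have been taken up or released. Several genes of these routes are known to be transcribed mainly in S phase in dividing cells.

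Between 19319411 and 22985371 counts were listed per library. Brachyury, listed under its older symbol T, had 0 counts in all 6 libraries, so the knockdown could not be checked. The study calls brachyury constitutively overexpressed in this line, but its RNA was not detected in the shNC libraries either. For the library with the fewest reads, 0 counts leave room for at most 0.162 CPM (3 counts, counting error only). The deposited design text calls the RNA pericardial, while the labels name the breast cancer line. VIM, CD44, AXL, CAV1 and MSN, which this line expresses, summed to at least 6517 CPM in every library. VIM had the highest means of these 5, 3864 CPM in shNC and 3204 CPM in shBry. CAV1 had the lowest, 189 CPM in shNC and 87.6 CPM in shBry. Of 5 markers listed as lacking in this line, ESR1, PGR and CDH1 had at most 2 counts in any library, but GATA3 and FOXA1 were detected, with means of 10.4 and 5.75 CPM in shNC and 13 and 6.07 CPM in shBry. The 5 leukocyte markers had at most 3 counts in any library, with PTPRC and TYROBP at 0 throughout, and the lung markers SFTPB, SFTPC and SCGB1A1 were at 0. The lung factor NKX2-1 was nevertheless listed at 35.9 ± 3.22 CPM in shNC and 17.4 ± 2.17 in shBry (SD, n = 3), and NAPSA, the fifth lung marker, at no more than 4.63 CPM. Of 5 mesothelial markers, ITLN1 was at 0 and WT1 and UPK3B had at most 7 counts in any library. CALB2 was listed at 1.37, 1.37 and 11.1 CPM in shNC and at 1.13, 0.59 and 0.709 CPM in shBry, and MSLN had 32.1 ± 3.85 CPM in shNC and 45.9 ± 2.89 in shBry. CPM are the reads on a gene per 1000000 reads of its library, after TMM scaling has set the libraries to a common level.

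Of the 9 genes, 5 were called lower in shBry and none was called higher. RRM2 and TYMS fell most, RRM1, TK1 and DTYMK fell to a like extent, CAD and DUT had lower values in every shBry library but stayed under the fold change limit, and DCK and UMPS did not pass the test. A gene was called at a Benjamini-Hochberg adjusted p below 0.05 over all 15277 tested genes (quasi-likelihood test of edgeR, shortened to edgeR from here on) and a fold change above 1.5. SE is that of the log2 fold change (standard error). By this rule 32.4% of all tested genes were called, 15.2% lower and 17.1% higher in shBry. The 3 shBry values lay below the 3 shNC values for 7 of the 9 genes, which was the case for 28.9% of all tested genes, and 59.5% of tested genes had groups that did not overlap in either direction. The 9 genes and all lists in this text were chosen with earlier results known, so such shares are a description only. The median log2 fold change of the 9 genes was -0.85, and that of all tested genes was 0.03. As a share of all raw counts, the 9 genes made up 0.15%, 0.152% and 0.152% in shNC and 0.0833%, 0.081% and 0.0844% in shBry. In bulk RNA, fewer cells that express a gene and less of its RNA per cell cannot be told apart.

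**Figure D1:**
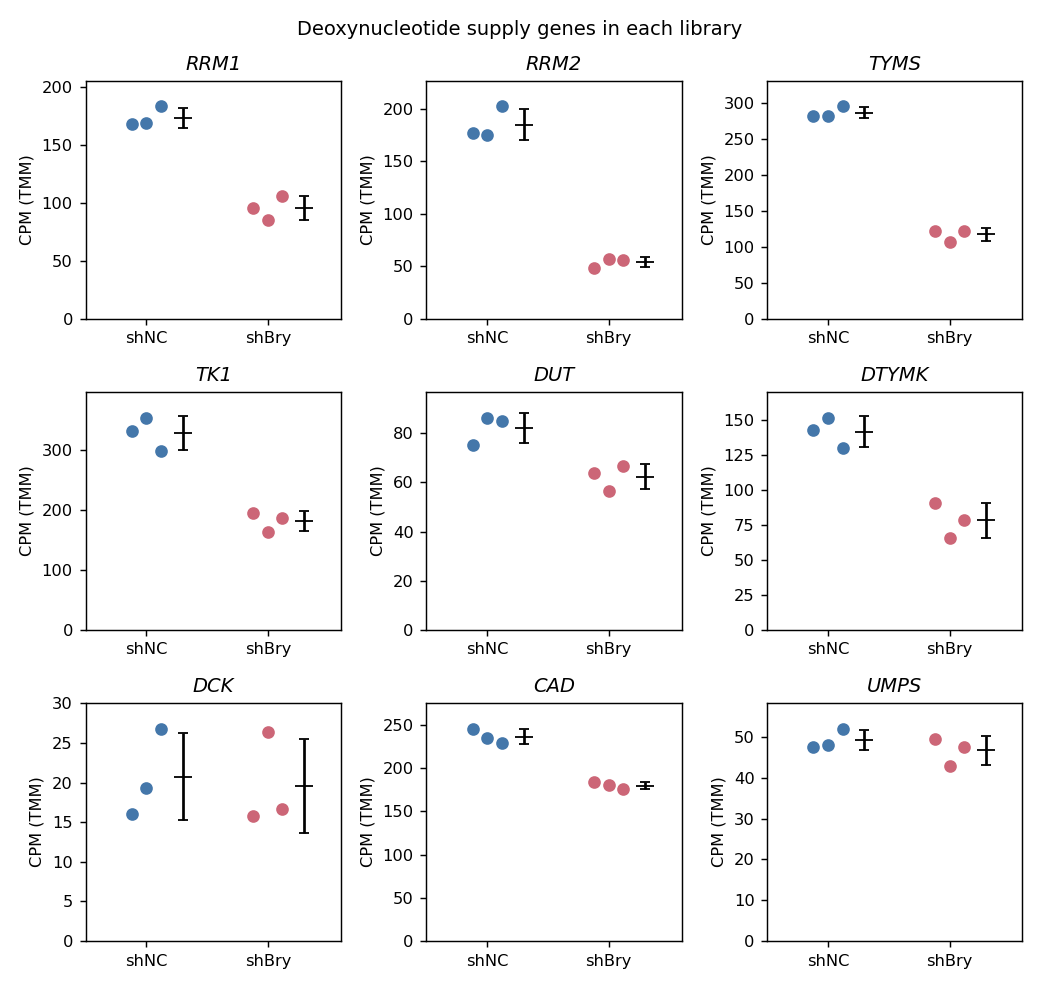
TMM-normalized CPM (y axis, from 0) of each of the 9 genes in the 3 shNC (blue) and 3 shBry (red) libraries, with the mean and SD beside the points. The groups are apart for 7 genes and overlap for DCK and UMPS.

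Both subunit genes of ribonucleotide reductase fell, and RRM2 had the larger log2 fold change. RRM2, which encodes the small subunit that carries the radical needed for catalysis, is a plus-strand gene of chromosome 2 (GRCh38, 10120698 to 10131419). Its level was 177, 175 and 202 CPM in shNC replicates 1, 2 and 3, and 48.2, 56.4 and 56.3 CPM in the shBry replicates. Every shBry library was thus far under the lowest shNC library. The log2 fold change was -1.78 (SE 0.09, edgeR adjusted p = 2.37e-09), and 1.25% of all tested genes had a lower value. An annotated transcript on the same strand, AC007240.1, covers 20.2% of the exon bases of RRM2, so the counting could have left out or shared such reads.

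Gene bounds in this text are from GENCODE, while promoter windows lie before RefSeq starts. The windows printed for RRM2, TYMS, TK1 and DTYMK fall inside those bounds. The 250 bases before the downstream RefSeq start of RRM2 (of 2 starts) hold 3 copies of the CCAAT box, the recognition letters of the factor NF-Y. They are shown because RRM2 fell most, each with its flanks and the box in capitals, on the plus strand of GRCh38.p14.
RRM2, chr2:10122606-10122630: caaggcgcagCCAATgggaagggtc
RRM2, chr2:10122636-10122660: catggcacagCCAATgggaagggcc
RRM2, chr2:10122663-10122687: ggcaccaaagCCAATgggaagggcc
The boxes begin 123, 93 and 66 bases before the start, and all 3 read on into the letters gggaagg.

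RRM1, which encodes the large subunit with the substrate and regulatory sites, lies on chromosome 11 from 4094707 to 4138876 on the plus strand. It was listed at 169, 169 and 184 CPM in shNC and at 95.3, 85.1 and 106 CPM in shBry. The groups did not overlap, and the log2 fold change was -0.86 (SE 0.09, edgeR adjusted p = 2.65e-06). Reads of RRM2 per read of RRM1 in the same library, a ratio that does not depend on library scaling, were 1.05, 1.03 and 1.1 in shNC and 0.506, 0.662 and 0.53 in shBry. The ratio was lower in all 3 shBry libraries, by 0.92 on the log2 scale (two-sided exact permutation test, p = 0.1, the smallest p that 3 against 3 libraries allow, adjusted p = 0.133 over 8 such ratios).

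RRM2B encodes the alternative small subunit, which serves DNA repair and mitochondrial DNA in cells outside S phase. It had 10.7, 13.2 and 15.5 CPM in shNC and 14.5, 21.9 and 16.1 CPM in shBry, so the groups overlapped. The log2 fold change was 0.42 with a 95% interval from 0.05 to 0.79 and an adjusted p of 0.0553 in edgeR, and it was not called. RRM2 had 16.5, 13.3 and 13 reads per read of RRM2B in shNC and 3.33, 2.57 and 3.5 in shBry (difference -2.19 on the log2 scale, exact permutation p = 0.1, adjusted p = 0.133).

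TYMS and SHMT1, genes of the thymidylate cycle, fell, while SHMT2, MTHFD1 and DUT were not called. TYMS, which encodes thymidylate synthase, lies on chromosome 18 from 657604 to 673578 on the plus strand. It had 283, 282 and 295 CPM in shNC and 122, 107 and 122 CPM in shBry. The shNC libraries were close to each other, and every shBry library lay far below them. The log2 fold change of TYMS was -1.29 (SE 0.08, edgeR adjusted p = 1.44e-08). Exons of ENOSF1 and TYMSOS, which are transcribed from the opposite strand, cover 46.6% of the exon bases of TYMS, and it is not stated whether reads were counted by strand. ENOSF1 had 48.1 ± 3.21 CPM in shBry against 38 ± 1.21 in shNC and was not called, and TYMSOS was called lower, at 3.22 ± 0.326 against 10.8 ± 0.609 CPM (SD, n = 3). For TYMSOS the log2 fold change was -1.75 (edgeR adjusted p = 7.09e-07).

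The RefSeq promoter of TYMS holds an E2F-type match on the minus strand, 39 bases before the start, and no CCAAT box. It is shown in capitals as read on the plus strand, since TYMS was, besides RRM2, the only one of the 9 genes that fell by more than a log2 value of 1.
TYMS, chr18:657606-657630: ggacggccGCGGGAAAaggcgcgcg

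SHMT1 and SHMT2 encode the cytosolic and the mitochondrial serine hydroxymethyltransferase, which load folate with the carbon unit. SHMT1 was listed at 56.5, 52.1 and 51.5 CPM in shNC and at 17, 17.1 and 14.6 CPM in shBry, a log2 fold change of -1.72 (SE 0.11, edgeR adjusted p = 1.31e-08). SHMT2 was listed at 633, 639 and 601 CPM in shNC and at 1014, 840 and 882 CPM in shBry. Its log2 fold change of 0.55 (edgeR adjusted p = 9.31e-05) lay under the fold change limit of 0.585, except without shBry replicate 2, where it reached 0.59 and was called. Thus the cytosolic gene fell, and the mitochondrial gene had higher values in every shBry library. The ratio of SHMT1 to SHMT2 reads went from 0.0893, 0.0816 and 0.0856 in shNC to 0.0168, 0.0204 and 0.0166 in shBry (difference -2.26 on the log2 scale, exact permutation p = 0.1, adjusted p = 0.133). MTHFD1, whose product interconverts one-carbon folates in the cytosol, had a log2 fold change of -0.49 (edgeR adjusted p = 0.000117) and was not called.

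DUT encodes dUTPase, which removes dUTP and so keeps uracil out of DNA while supplying dUMP to thymidylate synthase. The gene lies on chromosome 15 from 48331011 to 48343373 on the plus strand. It had 75.3, 86.4 and 84.9 CPM in shNC and 63.8, 56.6 and 66.6 CPM in shBry. The groups did not overlap, but the log2 fold change of -0.40 (95% interval -0.60 to -0.20, edgeR adjusted p = 0.00238) was under the limit. Reads of TYMS per read of DUT dropped from 3.75, 3.27 and 3.48 to 1.92, 1.9 and 1.83 (exact permutation p = 0.1, adjusted p = 0.133), lower in all 3 shBry libraries. An opposite-strand transcript covers 14.5% of the exon bases of DUT.

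**Figure D2:**
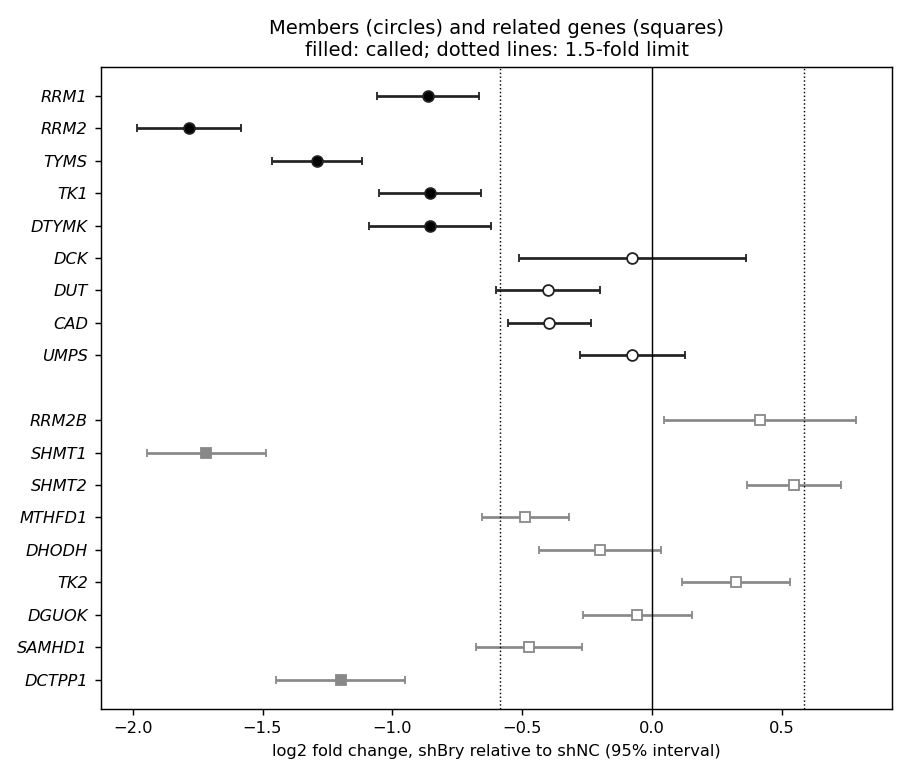
Log2 fold change of shBry relative to shNC (x axis) with its 95% interval for the 9 genes (circles) and 9 related genes (squares), filled where called. RRM2 is lowest at -1.78, and SHMT2 highest at 0.55.

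TK1 and DTYMK, kinase genes of the thymidine route, were called lower, and the deoxycytidine kinase gene did not pass the test. TK1, on chromosome 17 from 78174075 to 78187233 on the minus strand, encodes the cytosolic thymidine kinase of dividing cells. It had 333, 355 and 299 CPM in shNC and 196, 164 and 187 CPM in shBry. Its groups were more than 100 CPM apart, and the log2 fold change was -0.85 (SE 0.09, edgeR adjusted p = 2.93e-06). No other annotated gene overlaps its exons.

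DTYMK, on chromosome 2 from 241675742 to 241686991 on the minus strand, encodes thymidylate kinase, which acts on the product of both TYMS and TK1. Its values were 143, 152 and 130 CPM in shNC and 90.8, 65.6 and 78.8 CPM in shBry, a log2 fold change of -0.86 (SE 0.11, edgeR adjusted p = 1.65e-05). The shBry libraries differed more among themselves than for TK1, relative to their mean. Reads of DTYMK per read of TK1 were 0.43, 0.428 and 0.435 in shNC and 0.464, 0.401 and 0.422 in shBry, and these overlapped (exact permutation p = 0.8).

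CCAAT boxes were also present before the downstream start of TK1 (of 2 starts), where they lie on the strand opposite to the gene and read ATTGG in its direction, and before the start of DTYMK. These windows are shown beside those of RRM2 because TK1 and DTYMK fell too. Each is written in the direction of its gene, which is the minus strand of GRCh38.p14.
TK1, chr17:78187115-78187139: ccgggcgctgATTGGccccatggcg
TK1, chr17:78187084-78187108: ccggctcgtgATTGGccagcacgcc
DTYMK, chr2:241686893-241686917: ccggccccggCCAATcccttcgaat
DTYMK, chr2:241686825-241686849: ttgacgccggCCAATgggagctccg

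DCK encodes deoxycytidine kinase, the salvage enzyme that also activates several nucleoside drugs, and lies on chromosome 4 from 70992538 to 71030914 on the plus strand. It had 16.1, 19.3 and 26.8 CPM in shNC and 15.8, 26.4 and 16.6 CPM in shBry. One library in each group was high and the groups overlapped. The log2 fold change was -0.08 with a 95% interval from -0.51 to 0.36 (edgeR adjusted p = 0.776), an interval that stops short of the 1.5-fold limit in both directions. The neighbouring gene MOB1B covers 6.17% of the exon bases of DCK on the same strand. It was high in shBry replicate 2 as well, with 23.2 CPM against 12.7 and 15.5 in the other shBry libraries. MOB1B was called higher in shBry, with a log2 fold change of 0.68 (edgeR adjusted p = 0.0168), though its groups overlapped. RRM2B, whose exons no other annotated gene overlaps, was also highest in shBry replicate 2 (21.9 CPM) and shNC replicate 3 (15.5 CPM) within its groups. Whether shared reads had a part in the DCK values was not tested.

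The mitochondrial kinases are the counterparts of TK1 and DCK and serve mitochondrial DNA, also in cells that do not divide. TK2 had 48.7, 46 and 42.4 CPM in shNC and 59.5, 51.8 and 60.5 CPM in shBry, a log2 fold change of 0.32 (edgeR adjusted p = 0.0116) that was under the limit, and transcripts of other genes cover 25% of its exon bases. TK1 had 6.84, 7.72 and 7.04 reads per read of TK2 in shNC and 3.29, 3.16 and 3.08 in shBry (exact permutation p = 0.1, adjusted p = 0.133). DGUOK, the mitochondrial deoxyguanosine kinase gene, had a log2 fold change of -0.06 with a 95% interval from -0.27 to 0.15 (edgeR adjusted p = 0.643).

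**Figure D3:**
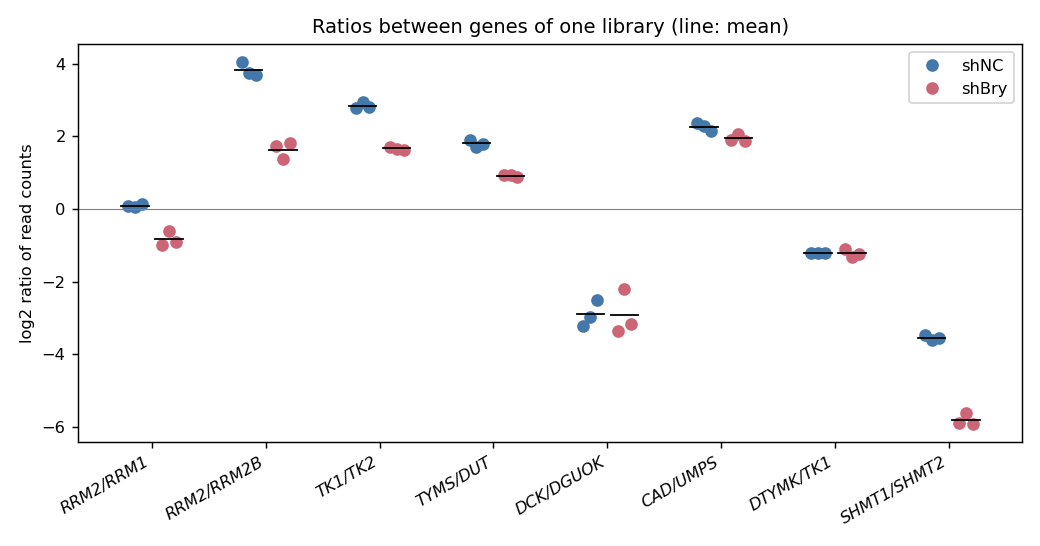
Log2 ratio of the read counts of 2 genes in the same library (y axis) for 8 pairs, with 3 shNC (blue) and 3 shBry (red) libraries and their mean as a line. The groups are apart for 6 pairs and overlap for DCK/DGUOK and DTYMK/TK1.

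Neither of the genes of UMP synthesis was called. CAD, on chromosome 2 from 27217390 to 27243943 on the plus strand, encodes the protein that carries the first enzymes of pyrimidine synthesis. It was listed at 246, 235 and 229 CPM in shNC and at 184, 180 and 176 CPM in shBry. Replicates were close, so that a log2 fold change of -0.40 (95% interval -0.56 to -0.24) had an adjusted p of 0.000485 in edgeR, yet it was under the fold change limit. UMPS, on chromosome 3 from 124730366 to 124749273 on the plus strand, encodes the enzyme that completes UMP. Its values were 47.6, 48 and 52.1 CPM in shNC and 49.7, 42.9 and 47.7 CPM in shBry, with overlapping groups. The log2 fold change of UMPS was -0.08 with a 95% interval from -0.28 to 0.13 (edgeR adjusted p = 0.523), an interval that reaches neither limit. Between these steps, DHODH, the mitochondrial dihydroorotate dehydrogenase gene, had a log2 fold change of -0.20 (95% interval -0.43 to 0.03, edgeR adjusted p = 0.138). Reads of CAD per read of UMPS were 5.16, 4.9 and 4.4 in shNC and 3.7, 4.2 and 3.69 in shBry (exact permutation p = 0.1, adjusted p = 0.133).

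Levels of different genes were compared as CPM per kilobase of the principal transcript. In shNC the order was TK1 (202 ± 17.3), TYMS (173 ± 4.56), DTYMK (115 ± 8.99), RRM1 (56.5 ± 2.74), RRM2 (53.8 ± 4.37), DUT (38.3 ± 2.81), CAD (32.6 ± 1.16), DCK (7.64 ± 2.02) and UMPS (7.31 ± 0.367, SD, n = 3). The neighbours RRM1 and RRM2, and DCK and UMPS, overlapped in their library values. In shBry the order was TK1 (112 ± 10.1), TYMS (70.5 ± 5.12), DTYMK (63.6 ± 10.2), RRM1 (31 ± 3.41), DUT (29 ± 2.4), CAD (24.8 ± 0.561), RRM2 (15.6 ± 1.37), DCK (7.22 ± 2.18) and UMPS (6.94 ± 0.517). There TYMS and DTYMK, RRM1 and DUT, and DCK and UMPS overlapped. By this length, the reductase subunits overlapped in shNC and were apart in shBry. The overlap in shNC depended on the length. With all exons of a gene as its length, the shNC means were 41.6 for RRM1 and 34.7 for RRM2. In shBry they were 22.9 and 10.1. RRM2 moved from rank 5 to rank 7, and these ranks also held when all exons of a gene were taken as its length. The order of other genes depended on the length. With all exons, CAD stood above DUT in shNC (28.1 against 22.4) and in shBry (21.4 against 17), and UMPS stood above DCK in both groups.

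Other genes of nucleotide metabolism did not move in a single direction. Of 58 genes in 4 lists, 57 could be tested, and 12 (21.1%) were called, 7 lower and 5 higher in shBry, beside 32.4% of all tested genes. The median log2 fold change of the 57 genes was 0.08, near that of all tested genes. The untested gene was CMPK2, with 1 count in all.

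Among 19 further genes of the reductase, thymidylate and pyrimidine steps, 3 were called, all lower, and 16 were not. SHMT1 was among the 3 that were called, and so was NME4, a mitochondrial nucleoside diphosphate kinase gene, whose log2 fold change of -0.59 was at the limit and whose call was lost without shNC replicate 2 or shBry replicate 2 (values between -0.66 and -0.55 over the 6 fits). TXNRD1, whose product reduces the thioredoxin that regenerates ribonucleotide reductase, had 538 ± 12.4 CPM in shBry against 377 ± 22.6 in shNC, a log2 fold change of 0.52 under the limit (edgeR adjusted p = 6.43e-05).

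Of 15 genes of nucleoside salvage and transport, 2 were called, both higher. UPP1, on chromosome 7 from 48088628 to 48108733 on the plus strand, encodes uridine phosphorylase, which splits uridine into uracil and a sugar phosphate. It had 41.6, 42.2 and 44.6 CPM in shNC and 549, 440 and 467 CPM in shBry. The log2 fold change was 3.50 (SE 0.10, edgeR adjusted p = 4.59e-12), and no tested gene of the 4 lists or of the 9 members changed by more in either direction. No other gene overlaps its exons. SLC29A3, a nucleoside transporter gene, had a log2 fold change of 0.62 and was not called without shNC replicate 3 or shBry replicate 1 (values between 0.50 and 0.68). The related transporter genes SLC29A1 and SLC29A2 were not called. SLC29A1 had a log2 fold change of 0.01 (edgeR adjusted p = 0.96). SLC29A2 had 0.52 (edgeR adjusted p = 0.000198), under the limit, with higher values in every shBry library.

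Of 11 tested genes that remove deoxynucleotides or clean their pool, 3 were called lower and 1 higher. DCTPP1, which encodes a pyrophosphatase acting on dCTP and its modified forms, had 125, 125 and 116 CPM in shNC and 61.8, 42.5 and 55.3 CPM in shBry, a log2 fold change of -1.20 (SE 0.12, edgeR adjusted p = 1.12e-06). ZNF771 covers 42.1% of its exon bases on the other strand. DPYD, the first enzyme of pyrimidine breakdown, had a log2 fold change of -0.89 (adjusted p = 5.41e-05), and NUDT1, which clears oxidized purine nucleotides, had -0.59 (edgeR adjusted p = 0.0015), a call that was lost without shNC replicate 1 or shBry replicate 2 (values between -0.70 and -0.50). NT5C, a deoxynucleotidase gene, was higher with a log2 fold change of 0.75 (edgeR adjusted p = 4.93e-05), but opposite-strand genes cover 60.7% of its exon bases. SAMHD1, which encodes the enzyme that hydrolyses deoxynucleotides outside S phase, had 58.9, 61.7 and 70.4 CPM in shNC and 44.3, 45.5 and 47.7 CPM in shBry. Its groups did not overlap, and its log2 fold change of -0.47 (edgeR adjusted p = 0.000748) was under the limit.

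Among the 12 genes of purine synthesis, PPAT and ATIC, which encode the first and the last enzyme of the route, were called higher, with log2 fold changes of 0.76 (adjusted p = 0.00011) and 0.71 (edgeR adjusted p = 3.8e-06). PRPS2, which encodes an enzyme for the ribose donor of all nucleotides, was called lower, with -0.66 (edgeR adjusted p = 0.000509). The other 9 were not called.

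**Figure D4:**
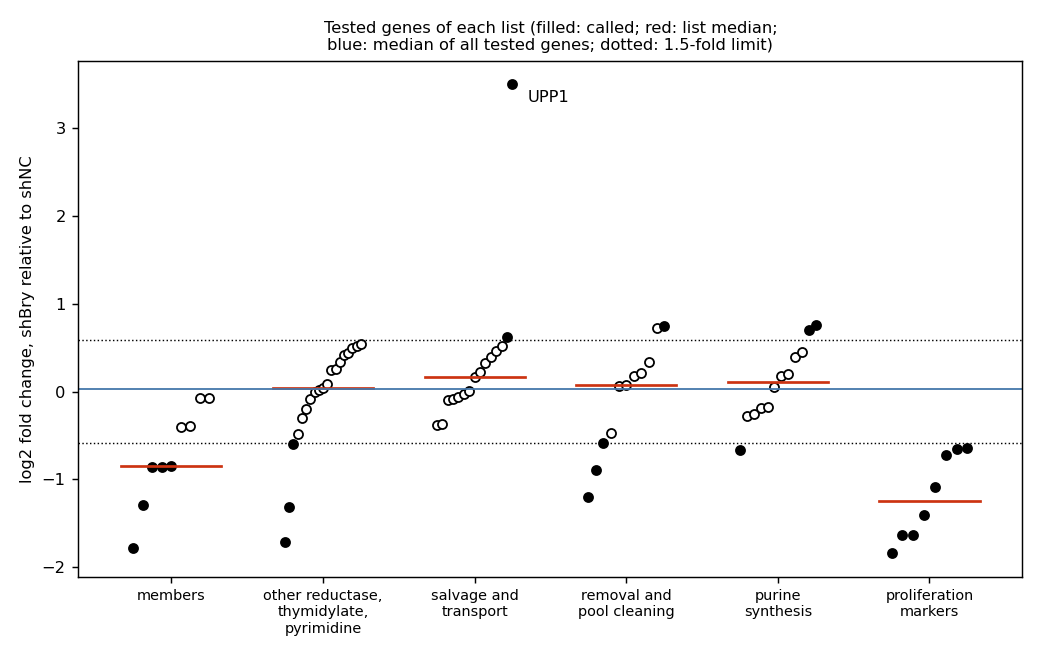
Log2 fold change of shBry relative to shNC (y axis) for the tested genes of the 9 members, of 4 lists of other nucleotide genes and of 8 proliferation markers, filled where called, with the list medians in red and the median of all tested genes in blue. Members and proliferation markers have medians of -0.85 and -1.25, and the other lists lie between 0.04 and 0.16.

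Proliferation markers fell, as did the 5 called members, while DUT, CAD, DCK and UMPS were not called. All 8 (MKI67, PCNA, TOP2A, MCM2, CCNA2, CCNB1, CDK1 and BIRC5) were called lower, beside 15.2% of all tested genes. Their log2 fold changes lay between -1.84 and -0.64. Their summed level was 1450 to 1579 CPM in shNC and 614 to 618 CPM in shBry, and none was at 0. The summed level of the 9 members was 1489 to 1522 CPM in shNC and 784 to 866 CPM in shBry. The part of the proliferation markers in the lower values of RRM1, RRM2, TYMS, TK1 and DTYMK was not tested.

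Outside the lists, 9333 genes that averaged 10 CPM or more were compared with the mean profile of the 9 members over the 6 libraries. SMYD4, TTLL11, ZNF207, CDK2 and IDI1 had the highest Pearson correlations, all at least 0.9985. With 2 groups of 3 libraries such a value mostly reflects the step between the groups, and it is given as a description. The log2 fold changes of these 5 genes lay between -1.61 and -0.58.

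Promoters of the 9 genes were described by the letters in the 250 bases before each RefSeq start, on both strands. A CCAAT box stood before at least 1 start of 5 genes (RRM1, RRM2, TK1, DTYMK and CAD), and before 37% of all 27305 genes of the table. The E2F-type letters TTTCCCGC, TTTGGCGC, TTTCGCGC or TTTGCCGC were found for TYMS and DUT, and for 3.4% of all genes. The letters TTTGAA, known as CHR, were found for RRM1, DUT and UMPS, and for 16.1% of all genes, and the Sp1-type letters GGGCGG for 7 of the 9 genes and 46.2% of all genes. The T-box letters TCACACCT was found for none of the 9 genes and for 0.982% of all genes. No match of one motif in these genes overlapped a match of another. RRM1 has its box 28 bases before the start and CAD has one 250 bases before it, and the window of RRM1 is given on the plus strand to set beside those of RRM2.
RRM1, chr11:4094647-4094671: atgtccatatCCAATggggcccatg
The genes with a CCAAT box in this window thus included 4 of the 5 that were called, and CAD, which was not. The 2 E2F-type matches of DUT, which was not called, lie before its most downstream start. Such matches are descriptions of sequence, and binding was not measured here.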

How the data were processed

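RNA of MDA-MB-231 shBry (n = 3) and shNC (n = 3) cells was sequenced. The authors deposited raw counts, whole numbers of reads per gene symbol, without normalization. The submitters' processing notes name HISAT2 2.0.4, HTSeq and GRCh38; annotation and strand setting are not given in the sources used here. Samples were grouped by the hairpin label. Genes were filtered with filterByExpr (minimum count 10), scaled by TMM and tested in edgeR 4.0.16 (R 4.3.3) with glmQLFit and glmQLFTest, with Benjamini-Hochberg adjustment over all tested genes. Standard errors are the log2 fold change divided by the square root of F. The 1.5-fold limit is that of the study.

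The 9 members and all lists were chosen with earlier results of these data known. Genes named were the members, brachyury and, in each list, up to 4 called genes with the largest change. Also named were RRM2B, SAMHD1, DHODH, TK2, DGUOK and the 5 genes most alike in profile. Other genes of the lists (SHMT2, MTHFD1, TXNRD1, SLC29A1, SLC29A2) and overlapping genes were named after their values were seen, and so were the 8 ratios. A result of a single listed gene is not reported here. Locations, lengths and overlaps came from GENCODE 29 (GRCh38), and promoters from RefSeq (GRCh38.p14), where all 9 members matched. Alternatives were scaling without TMM, DESeq2 1.42.0, limma-voom (limma 3.58.1), other filters and limits, unadjusted p, a replicate block and each library left out. Libraries of a group differed by more than sampling noise (chi-square divided by its degrees of freedom, 5 to 16.8). The test was tried on simulated data.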

Additional observations from a re-analysis of the deposited data

How the results depend on the processing

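The 5 members called (RRM1, RRM2, TYMS, TK1 and DTYMK) kept their direction and their call without TMM, with DESeq2, with limma-voom, with both other filters, with unadjusted p and with each library left out. With a fold change limit of 2, RRM2 and TYMS were left, that is 2 members, 4 of the other nucleotide genes and 2297 of all genes. Without a limit, 7 members, 31 of the other nucleotide genes and 8139 of all genes had an adjusted p below 0.05, and DUT and CAD were then among the members. DCK had no stable direction: its log2 fold change was 0.13 without shNC replicate 3, 0.06 without shBry replicate 1 and 0.03 without shBry replicate 3, with a lowest value of -0.36 without shBry replicate 2, and edgeR adjusted p between 0.0695 and 0.92 over the 6 fits. The cause was not tested. With each library left out, RRM2 lay between -1.84 and -1.72, TYMS between -1.33 and -1.25, and UMPS between -0.12 and -0.03. With the replicate number as a block (replicate block), 5 members, 12 other nucleotide genes and 4914 genes were called. The deviations of the 2 libraries of number 1 from their group means matched each other best, with a correlation of 0.246. Those of numbers 2 and 3 did not match their own number best (correlations -0.129 and -0.054). The numbers are therefore taken as names only. DCK had between 293 and 627 counts per library and the widest interval of the 9 members (SE 0.20). SHMT1, with 316 to 406 counts in the shBry libraries, had an SE of 0.11.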
